A study of Mus musculus with 18 samples.

Results

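Distal open regions of liver macrophages (LMs) formed 451 dense clusters, which held 2612 of the 48090 distal regions on chromosomes 1 to 19 (5.43%, 95% Wilson confidence interval 5.23% to 5.64%). These chromosomes held 68533 of the 69499 regions in the whole list. A region was called distal when its midpoint lay more than 1000 bp from every annotated transcription start site (TSS), and neighboring distal regions were chained when their midpoints were at most 5000 bp apart. A chain of 5 or more regions is called a cluster here, and its regions are called members. The clusters were thus chosen by the measured positions of the regions, so the number, spacing, and density of the members are a description and support nothing further. The other 45478 distal regions, of which 24701 were chained to no neighbor, are given beside the members for comparison.

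The regions come from fast-ATAC-Seq on 50000 LMs per reaction, an assay that marks open chromatin by where a transposase can cut the DNA and attach adapters. The study asked how loss of clock and lipid regulators in hepatocytes changes LMs, and it used male C57BL/6J mice given a high-fat, high-sucrose diet for 4 weeks, with LMs taken at ZT10 and ZT22 (hours after lights on). The labels name the cells liver macrophages and, in library names, KCs, for Kupffer cells. The 3 genotypes were Control, *Reverb*-hDKO, in which the floxed genes of both REV-ERBs were deleted, and *Reverb/Scap*-hTKO, in which floxed *Scap* was deleted as well. With 3 replicates of each genotype at each time there were 18 libraries. All mice received an AAV at 8 weeks of age, encoding GFP in controls and CRE in the knockouts. The hepatocyte-specific TBG promoter drove both, so the deletions were aimed at hepatocytes and not at the LMs that were sequenced. The list pools all 18 libraries and gives each region's chromosome, start, and end alone. The depth of the libraries is therefore unknown, no member can be compared between genotypes or times, and no test was run. A region may have come from some of the libraries alone.

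Enhancers are stretches of DNA away from promoters that transcription factors bind to raise transcription of genes nearby or far away. Their nucleosomes are displaced, so that they appear as short open regions, and genes that define a cell type often have several of them close together. In macrophages the lineage factor PU.1 opens many such sites together with C/EBP and AP-1 factors. Openness alone does not show that a region is an enhancer, nor which gene it acts on.

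The 4 clusters with most members lay near *Mical2*, *Zfp36l2*, *Csk*, and *Psen2*, and their widest members are shown to give the sequence of the regions that the clusters are made of. They are from the plus strand of mm9. The member near *Mical2* is chr7:119330580-119330877, 298 bp wide, between genes. The one near *Zfp36l2* (chr17:84518928-84519293) is 366 bp wide and is shown over its central 300 bases, chr17:84518961-84519260. The one near *Csk* is chr9:57494574-57494855, 282 bp wide. The one near *Psen2* (chr1:182140912-182141268) is 357 bp wide and is shown over chr1:182140940-182141239. Capitals mark the letters of the AP-1 motif, TGACTCA or TGAGTCA, which only the member near *Zfp36l2* holds among these 4 widest members.
Mical2 cluster, region 4: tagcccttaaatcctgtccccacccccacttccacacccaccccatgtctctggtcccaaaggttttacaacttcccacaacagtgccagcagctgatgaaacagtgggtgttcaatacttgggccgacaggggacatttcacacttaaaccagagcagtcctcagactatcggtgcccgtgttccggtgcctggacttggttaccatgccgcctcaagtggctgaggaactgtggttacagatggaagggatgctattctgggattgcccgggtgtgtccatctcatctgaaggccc
Zfp36l2 cluster, region 12: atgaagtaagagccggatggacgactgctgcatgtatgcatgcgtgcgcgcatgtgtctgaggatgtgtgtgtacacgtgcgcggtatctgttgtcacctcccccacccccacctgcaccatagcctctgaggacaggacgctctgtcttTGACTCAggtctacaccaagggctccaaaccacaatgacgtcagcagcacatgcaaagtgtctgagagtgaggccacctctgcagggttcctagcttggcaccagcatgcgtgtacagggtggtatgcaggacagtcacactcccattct
Csk cluster, region 6: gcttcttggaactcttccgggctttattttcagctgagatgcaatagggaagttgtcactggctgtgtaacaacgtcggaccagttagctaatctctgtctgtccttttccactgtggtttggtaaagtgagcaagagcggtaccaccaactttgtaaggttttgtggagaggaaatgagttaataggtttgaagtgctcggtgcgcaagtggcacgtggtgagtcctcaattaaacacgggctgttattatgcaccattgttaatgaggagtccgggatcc
Psen2 cluster, region 3: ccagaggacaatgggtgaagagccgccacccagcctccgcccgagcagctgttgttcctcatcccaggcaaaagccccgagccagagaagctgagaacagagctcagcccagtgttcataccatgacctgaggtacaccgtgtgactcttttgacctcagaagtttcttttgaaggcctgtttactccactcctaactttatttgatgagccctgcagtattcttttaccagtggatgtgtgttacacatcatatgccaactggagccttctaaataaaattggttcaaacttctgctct

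AP-1 factors are dimers of JUN and FOS family proteins that respond to growth and stress signals. The 4 members shown next are those with most matches to their letters in the region, then in its central part, and then in the larger clusters, and each holds 2. The first is another member of the *Zfp36l2* cluster (chr17:84506957-84507107). The second lies in an intron of *Map3k5*, which encodes a stress-activated kinase (chr10:19797105-19797287, 183 bp). The third is between genes, and *Ccrn4l*, the gene of nocturnin, which is expressed in a daily rhythm in liver, is the nearest coding gene to its cluster (chr3:50999345-50999569, 225 bp). The fourth is in the cluster nearest to *Klf7*, a Krüppel-like factor gene 178921 bp away (chr1:64352270-64352484, 215 bp), and its 2 matches directly follow each other. Capitals mark the AP-1 letters.
Zfp36l2 cluster, region 4: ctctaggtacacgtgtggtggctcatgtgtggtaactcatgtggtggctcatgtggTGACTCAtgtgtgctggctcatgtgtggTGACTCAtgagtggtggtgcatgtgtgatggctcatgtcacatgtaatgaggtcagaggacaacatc
Map3k5 cluster: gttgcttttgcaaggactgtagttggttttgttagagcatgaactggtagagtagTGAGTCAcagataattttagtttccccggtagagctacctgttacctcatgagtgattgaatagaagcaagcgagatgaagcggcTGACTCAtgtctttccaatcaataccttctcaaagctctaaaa
Ccrn4l cluster: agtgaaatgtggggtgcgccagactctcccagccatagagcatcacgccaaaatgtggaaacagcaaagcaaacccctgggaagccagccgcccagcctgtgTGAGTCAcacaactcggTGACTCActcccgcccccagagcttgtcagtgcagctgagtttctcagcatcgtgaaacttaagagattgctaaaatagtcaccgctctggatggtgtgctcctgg
Klf7 cluster: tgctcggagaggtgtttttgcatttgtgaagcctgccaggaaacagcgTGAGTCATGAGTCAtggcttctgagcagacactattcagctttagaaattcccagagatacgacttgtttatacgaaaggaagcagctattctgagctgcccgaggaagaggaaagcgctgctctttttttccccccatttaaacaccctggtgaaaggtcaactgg

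PU.1 is an ETS factor needed for macrophages and B cells to form. Its letters are GAGGAAGT, and 4 members with 2 matches are shown. All 4 lie in introns. They are in *Pola2*, which encodes a subunit of DNA polymerase alpha (chr19:5952219-5952480, 262 bp), in *Abtb2* (chr2:103446111-103446261), in the histone demethylase gene *Kdm4a* (chr4:117817095-117817326, 232 bp), and in *Abca1*, whose product exports cholesterol from macrophages (chr4:53139706-53139954, 249 bp). Capitals mark the PU.1 letters as they stand on either strand, so that ACTTCCTC is the same motif on the minus strand.
Pola2 cluster: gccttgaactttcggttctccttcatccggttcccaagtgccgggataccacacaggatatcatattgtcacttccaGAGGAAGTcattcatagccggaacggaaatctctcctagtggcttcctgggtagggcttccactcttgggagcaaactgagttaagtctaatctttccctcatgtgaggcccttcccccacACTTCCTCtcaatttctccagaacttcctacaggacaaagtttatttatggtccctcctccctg
Abtb2 cluster: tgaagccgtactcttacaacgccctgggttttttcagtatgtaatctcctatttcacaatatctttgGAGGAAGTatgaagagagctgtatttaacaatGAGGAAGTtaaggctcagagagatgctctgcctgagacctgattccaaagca
Kdm4a cluster: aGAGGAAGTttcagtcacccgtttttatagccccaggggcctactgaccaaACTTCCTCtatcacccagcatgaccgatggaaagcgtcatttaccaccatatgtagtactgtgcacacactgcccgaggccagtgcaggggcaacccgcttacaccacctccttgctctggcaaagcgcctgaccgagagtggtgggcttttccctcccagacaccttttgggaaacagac
Abca1 cluster: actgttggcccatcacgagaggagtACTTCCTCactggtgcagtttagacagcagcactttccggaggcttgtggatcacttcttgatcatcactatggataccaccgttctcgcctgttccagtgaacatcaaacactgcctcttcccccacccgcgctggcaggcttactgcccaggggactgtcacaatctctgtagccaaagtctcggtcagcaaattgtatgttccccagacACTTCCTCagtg

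Most clusters were small. Of the 451, 267 (59.2%, 54.6% to 63.6%) had exactly 5 members, and 46 (10.2%, 7.73% to 13.3%) had 8 or more. Just outside the rule, 687 chains had 4 regions. The largest cluster had 15 members. A cluster spanned 1623 to 37217 bp with a median of 8633 bp, and it held 0.281 to 3.08 members per kb with a median of 0.636. Together the spans covered 4289466 bp, or 0.173% of chromosomes 1 to 19, and within a span a median of 11.9% of the bases were open. The counts of clusters and members depend on the rule. With regions at most 500 bp apart joined into 1 there were 196 clusters with 1113 members, and when only regions at least 200 bp wide were chained there were 8 clusters with 42 members.

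**Figure D1:**
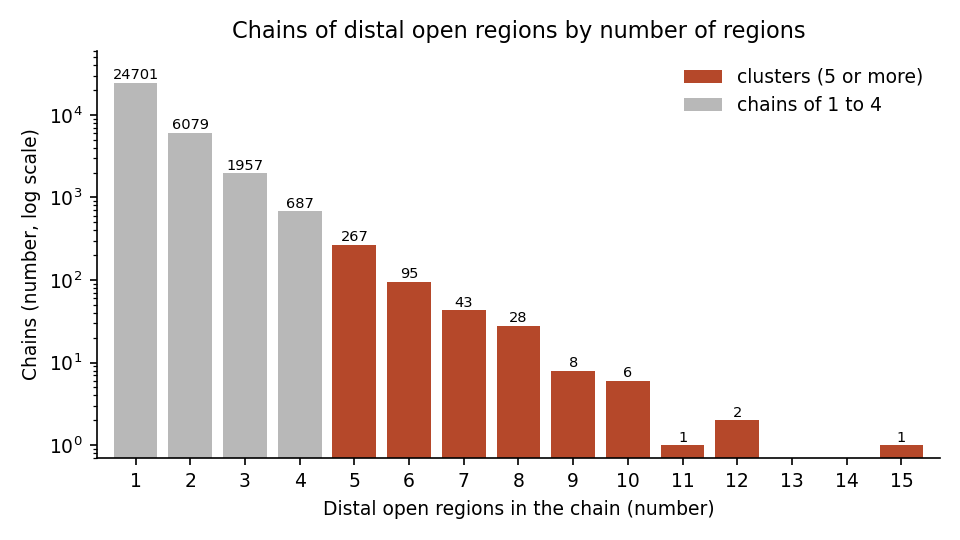
Number of chains (y axis, log scale) by the number of distal open regions in the chain (x axis). Bars for 5 or more regions are the 451 clusters, which range from 267 chains of 5 to 1 chain of 15. Single regions are the 24701 distal regions with no distal neighbor within 5000 bp.

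The step from one member to the next was no shorter in clusters than in smaller chains. The rule caps both at 5000 bp, so the comparison is a description and supports nothing further. The median distance between neighboring midpoints was 1563.5 bp over 2161 pairs of members and 1560.5 bp over 12054 pairs in chains of 2 to 4 regions. At most 1000 bp lay between 37.6% of the pairs of members (35.6% to 39.7%) and between 37.7% of the pairs in smaller chains (36.8% to 38.5%). Near the threshold, the longest step inside a cluster was 4999.5 bp, while the nearest distal region beyond the end of a cluster was 5010 bp away. On 80 of 901 sides it was within 6000 bp, and the median over the sides was 13469.5 bp. The member nearest to a TSS was 1005.5 bp from it. Edges of 282 pairs of members (13.05%, 11.7% to 14.5%) were at most 200 bp apart, and the closest pair had 1 bp between them, and whether such neighbors are a single open stretch was not tested.

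Width was not used by the rule. No member is narrower than the commonest width, which is 150 bp when rounded to 10 bp, and 1368 of 2612 members were wider than the commonest width (52.4%, 50.5% to 54.3%), against 20939 of 45478 other distal regions (46.0%, 45.6% to 46.5%). Members were 187 ± 49.5 bp wide (SD over regions, n = 2612), with a median of 157 bp and a largest width of 498 bp, and the other distal regions 180.2 ± 45.0 bp (n = 45478), with a median at the commonest width. The difference in means was small beside the SD among members. At least 200 bp were reached by 31.5% of members (29.8% to 33.4%) and 25.8% of the others (25.4% to 26.2%), and at least 300 bp by 3.18% (2.57% to 3.92%) and 2.19% (2.06% to 2.33%). Proximal regions, within 1000 bp of a TSS, were wider than both, with 69.7% of 20443 above the commonest width. The intervals cover counting error only, since neighboring regions share a locus and are not independent.

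By size of the chain, the share of regions wider than the commonest width was 43.0% for regions with no neighbor (42.4% to 43.6%, n = 24701), 48.8% in chains of 2, 50.6% in chains of 3, 51.2% in chains of 4, and 50.6% in chains of 5 (48.0% to 53.3%, n = 1335). In clusters of 6 to 7 it was 54.8% (51.4% to 58.0%, n = 871) and in those of 8 or more 53.0% (48.1% to 57.8%, n = 406). The interval for single regions lies below all the others, and the intervals of all sizes from 3 upward overlap. Among members, 51.9% of the first and last (48.6% to 55.1%, n = 902) and 52.6% of the inner ones (50.3% to 54.99%, n = 1710) were wider, which the counts cannot tell apart. Every member was wider in 18 clusters and none was in 12.

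**Figure D2:**
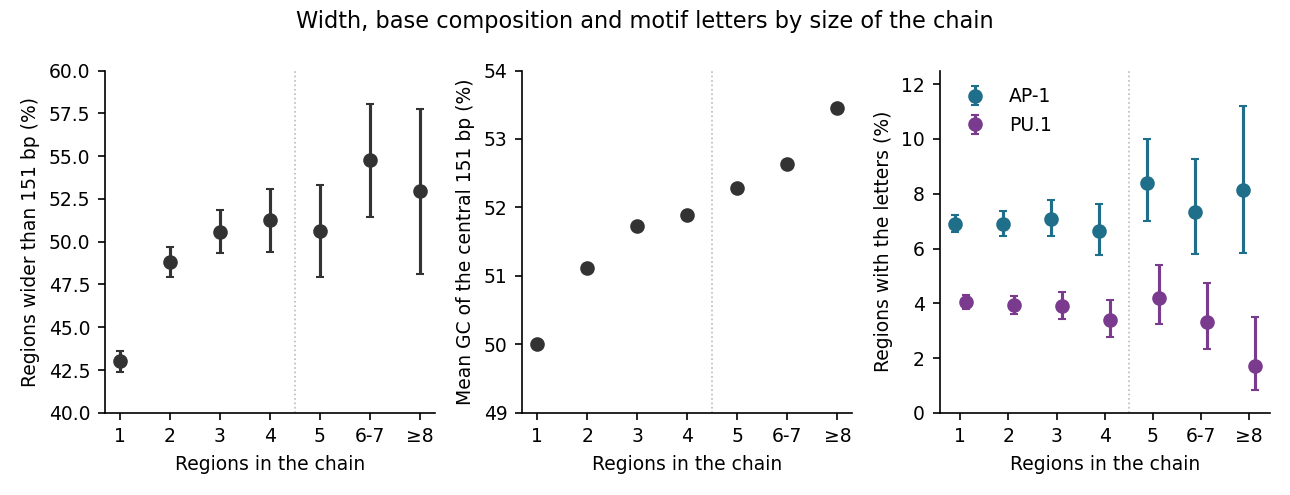
Share of regions wider than the commonest width (left), mean GC of the central window of that width (middle), and share of regions whose central window holds the AP-1 or PU.1 letters (right), all in percent, by the number of regions in the chain. Points right of the dotted line are clusters, and the left and middle axes do not start at 0. Bars on the left and right are 95% Wilson intervals, and the means in the middle have no interval drawn. Mean GC goes from 50.0% for single regions to 53.4% in clusters of 8 or more. The PU.1 share shows no steady change, with 4.04% for single regions, 4.19% in chains of 5, and 1.72% in clusters of 8 or more.

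Mean GC was higher in longer chains. It was read in a central window of the commonest width, so that the width of a region does not enter, and it was 52.6% in members, against 50.6% in the other distal regions, with SDs over regions of 6.46 and 6.56 percentage points. By chain size the mean was 50.0% for single regions, 51.1% in chains of 2, 51.7% in chains of 3, 51.9% in chains of 4, 52.3% in chains of 5, 52.6% in clusters of 6 to 7, and 53.4% in those of 8 or more. Members had 3.04 CpG per window on average and the others 2.57, and 6.24% of members (5.38% to 7.23%) and 4.12% of the others (3.94% to 4.31%) had 8 or more. The same was seen in closed DNA beside the regions. In windows 1000 bp away that touched no open region, mean GC was 48.0% beside members and 45.7% beside the others, so the GC of the neighborhood moved with membership as well as that of the regions.

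With the rule used here, members lay between genes more often than the other distal regions and in introns less often. Of the members, 51.7% were intergenic (49.8% to 53.6%), 43.1% were in introns (41.2% to 45.0%), and 5.21% in exons (4.42% to 6.13%) of protein-coding or lncRNA genes. For the other distal regions these shares were 46.0% (45.6% to 46.5%), 48.8% (48.4% to 49.3%), and 5.12% (4.92% to 5.33%). The share in introns depended on the rule. With a chain distance of 10 kb, 49.3% of members were in introns (48.3% to 50.3%). The share of the others was not computed at that setting, so the contrast was not shown to hold there. The median distance to the nearest TSS was alike, with 13890.2 bp for members and 13935 bp for the others, but members were less spread. Within 5000 bp of a TSS there were 16.8% of members (15.4% to 18.3%) and 22.9% of the others (22.5% to 23.3%), and beyond 50 kb there were 10.8% (9.66% to 12.04%) and 17.8% (17.4% to 18.1%). The rule leaves out regions within 1000 bp of a TSS for members and others alike, and a chain may pass over a TSS. How far the rule bears on these differences was not tested. Outside coding genes, 46.6% of 1430 members (44.0% to 49.2%) were nearer to the 5′ end of a coding gene than to a 3′ end, against 53.5% of 22019 others (52.8% to 54.2%). The rule leaves out regions near starts and makes no such exclusion at 3′ ends. Whether this bears on the difference was not tested. Inside coding genes the median position was 47.9% of the way along the gene for members and 49.5% for the others.

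Counted by cluster, 240 of 451 (53.2%, 48.6% to 57.8%) touched a protein-coding gene, and 173 (38.4%, 34.0% to 42.9%) lay wholly inside 1. Every member was in an intron in 144 clusters and between genes in 194. A proximal open region stood inside the span of 19 clusters (4.21%, 2.71% to 6.49%) and inside it or within 5000 bp of it in 88 (19.5%, 16.1% to 23.4%). The 211 clusters that touched no coding gene were a median of 14061 bp from the nearest one. Of these, 85 were within 10 kb, 15 were more than 100 kb away, and the farthest was at 361440 bp. Neighboring clusters were a median of 2159763 bp apart, with 17 pairs at most 20 kb apart, 32 at most 50 kb apart, and the closest at 5208 bp.

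By chromosome, the share of distal regions that were members ranged from 3.44% to 7.54%. It was lowest on chromosome 13, with 78 of 2265 (3.44%, 2.77% to 4.28%), and chromosome 3, with 90 of 2371 (3.80%, 3.10% to 4.64%). The highest was on chromosome 17, with 161 of 2135 (7.54%, 6.50% to 8.74%), followed by chromosome 1 with 217 of 3339 (6.50%, 5.71% to 7.39%). Members come in clusters of 5 or more, with 13 clusters on chromosome 13, 16 on chromosome 3, and 28 on chromosome 17. The intervals count each region as independent and are therefore too narrow, and whether the chromosomes differ was not tested. Per 10 Mb there were 1.00 clusters on chromosome 3 and 2.94 on chromosome 17. These chromosomes also differed in the density of distal regions, with 14.9 per Mb on chromosome 3 and 22.4 on chromosome 17, while chromosome 13 had 18.8 and chromosome 11 had 25.2, the most of all, with a member share of 5.48%.

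The largest cluster held 15 members over 37217 bp (chr7:119323840-119361056), all intergenic, and ended 8314 bp before the start of *Mical2* (ENSMUSG00000038244.6, plus strand), whose product oxidizes actin. Its regions were up to 298 bp wide, and 9 of them were wider than the commonest width. The central window of 2 members held the AP-1 letters and those of 3 the C/EBP letters. With regions at most 500 bp apart joined, 9 members remained.

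The cluster of 12 members near *Zfp36l2* (ENSMUSG00000045817.7, minus strand), which encodes an RNA-binding protein that promotes decay of mRNAs, lay between genes at chr17:84494569-84519293, 63978 bp from this nearest coding gene. Its members were not evenly spread, as the plot of the largest clusters shows, and 8 of the 12 lay in the last 8 kb on the side toward the gene. Only 4 were wider than the commonest width, with widths of 258, 196, 188, and 366 bp. It was among the 11 clusters with the most AP-1 members, which was 3, and it held 1 PU.1 and 1 CTCF member as well. The other cluster of 12, at chr9:57486510-57517736, reached from *Csk* (ENSMUSG00000032312.6, minus strand), the kinase that holds Src-family kinases inactive, into the DNA upstream of it. In it 5 members were in introns and 7 between genes, 9 of 12 were wider than the commonest width, and 2 proximal regions stood between the members. With distal taken as beyond 2.5 kb of a TSS it kept 6 members. None of its members held the AP-1 or PU.1 letters.

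Near *Psen2* (ENSMUSG00000010609.9, minus strand), which encodes the presenilin 2 subunit of γ-secretase, 11 members lay between genes at chr1:182140232-182156308, 827 bp past the 3′ end of the gene. With regions at most 500 bp apart joined 6 members were left. The 6 clusters of 10 members lay inside *Tcte2*, *Tpcn1*, and *2010111I01Rik*, between genes near *Zswim4* and *Tomm20*, and in lncRNA genes 16202 bp from *Gm15319*. Of the last of these clusters, 2 members were in exons and 8 in introns. *Tpcn1* encodes an ion channel of endosomes and lysosomes, and its 10 members were at most 207 bp wide and all in introns. *Tomm20* encodes a mitochondrial import receptor, and its cluster, 46577 bp from the gene, had 3 AP-1 members. The members near *Zswim4* had the highest mean GC of the 12 largest clusters, 61.6%, and they were under 5 once joined in the same way.

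The cluster at chr8:19974990-19986664, nearest to *Gm15319*, has more members with repeated sequence than any other cluster. The central 32 bases of 5 of its 10 members occur 2 to 5 times in the genome, and whether reads were placed uniquely there was not tested. Over all clusters, 31 members (1.19%, 0.837% to 1.68%) in 25 clusters had such bases, against 0.776% (0.700% to 0.861%) of the other distal regions. The cluster in *Cx3cr1* is among the 25, with 1 such member. Without any repeated region there were 434 clusters with 2510 members.

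**Figure D3:**
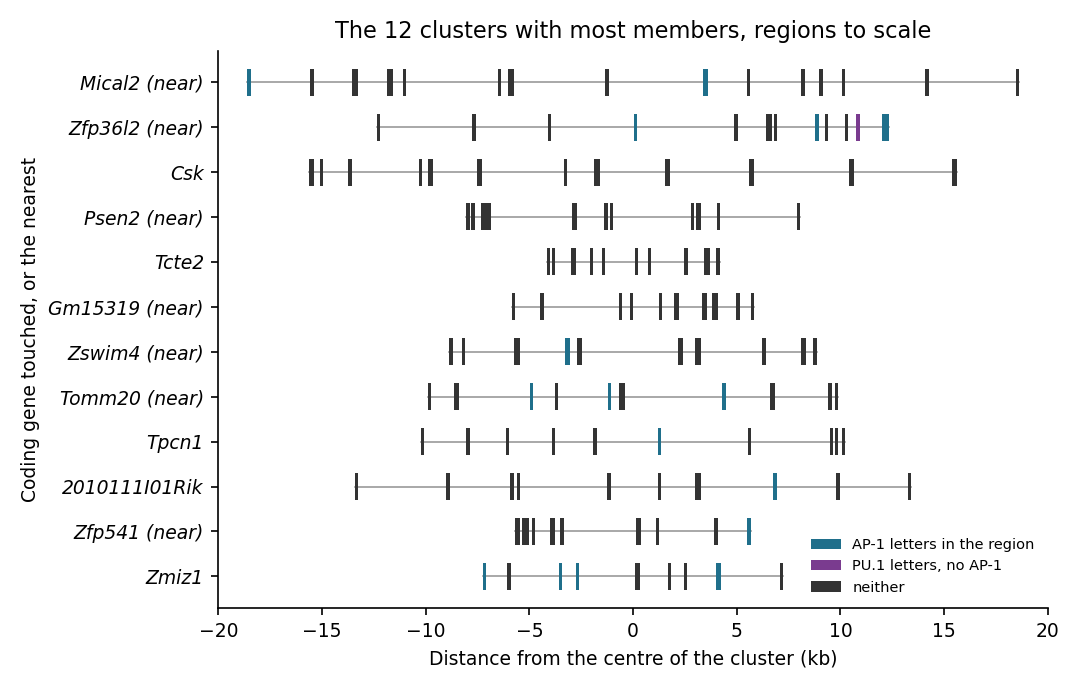
Members of the 12 clusters with most members (rows), drawn to scale by distance in kb from the center of the cluster. Each bar is 1 open region and its color shows whether the region holds the AP-1 letters, the PU.1 letters, or neither. Row labels give the coding gene touched or, where marked as near, the nearest, and members are seen to be unevenly spaced, with 8 of 12 of the *Zfp36l2* cluster on its right.

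The densest clusters each had 5 members within 2 kb. In *Lrsam1*, which encodes a ubiquitin ligase, they spanned 1623 bp (chr2:32783483-32785105, 3.08 per kb, widths up to 357 bp). Near *Cecr5*, 47883 bp away, they spanned 1643 bp (chr6:120529220-120530862), and near *Fam116b*, 13851 bp away, 1900 bp (chr15:89040756-89042655). The cluster near *Fam116b* touched the lncRNA gene *Gm17401*, with 2 members in exons and 3 between genes. After joining of regions at most 500 bp apart, none of the 3 had 5 regions left. The longest clusters after that near *Mical2* were the one at *Csk*, 31227 bp, and the one in *2010111I01Rik*, 26841 bp.

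Of 21418 protein-coding genes, 239 (1.116%, 0.984% to 1.27%) held a member, and 12 of these held 2 or more clusters. Genes with a member were long, with a median of 59838 bp against 15293 bp for the others, so a count of genes with members is partly a count of long genes. *Zmiz1*, which encodes a transcriptional coactivator, held the most, with 18 members in 2 clusters of 9 (chr14:26300469-26317526 and chr14:26335689-26350136). Members of the first were 227.1 bp wide on average and those of the second 168 bp. The gene model *Gm20388* held 17 members in 3 clusters, but it is 4434882 bp long. *Tnfrsf1b*, which encodes a receptor for TNF, held 12 members in 2 clusters of 6 within 33408 bp, and no other distal region lay in it. *Snx24*, a sorting nexin gene, and *Prkag2*, which encodes a regulatory subunit of AMP-activated protein kinase, held 12 as well, each in clusters of 7 and 5. *Ninj2* held 11 in clusters of 6 and 5. The shortest of the genes with 10 were *Tpcn1*, *Zfp710*, *Tcte2*, and *Itpr1*, which encodes a calcium channel of the endoplasmic reticulum.

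Lists of genes were then examined for members in the gene or within 10 kb of it. Over all protein-coding genes this share was 1.91% (410 of 21418), and within 50 kb it was 5.03% (1077 of 21418). The counts of the lists that follow are within 10 kb. Among 20 transcription factors of the macrophage lineage 2 had a cluster (10%, 2.79% to 30.1%), among 19 genes of Kupffer cell identity 1 (5.26%, 0.935% to 24.6%), and among 14 genes of AP-1 and related factors 1 (7.14%, 1.27% to 31.5%). There were 2 of 20 each for the core clock and its output, for lipid handling and lysosomes, and for inflammation and monocytes (10%, 2.79% to 30.1%). The sinusoidal endothelial list had 1 of 19. With 0 there were the lists of SREBP and lipid synthesis (of 20), hepatocytes (of 22), stellate cells (of 20), cholangiocytes (of 12), T, B, and NK cells (of 20), neutrophils (of 12), and neurons and muscle (of 19). With so few genes, a count of 0 allows a share of up to 14.9% in the hepatocyte list and 24.2% in the shortest ones. No set test was run, and the lists were chosen with earlier results of these data known. No adjustment was made for the 14 lists, so the intervals do not show that any list differs from all coding genes. Over all coding genes the median length was 15535 bp. Among the lists with a cluster it was longer for macrophage factors (38412.5 bp), endothelial genes (36075 bp), the clock (31632 bp), and lipid handling (25207.5 bp), and shorter for Kupffer cells (12039 bp), AP-1 (9507 bp), and inflammation (6032.5 bp).

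Open starts were counted in the lists beside the label of the cells. The share over all coding genes was not counted, so the counts cannot show whether a list is high or ordinary. A region within 1000 bp of a TSS was present at 13 of 19 Kupffer cell genes, 18 of 20 macrophage factors, 17 of 19 sinusoidal endothelial genes, 8 of 20 stellate genes, 5 of 12 cholangiocyte genes, 8 of 20 lymphocyte genes, 2 of 12 neutrophil genes, and 4 of 19 neuron and muscle genes. It was also present at 21 of 22 hepatocyte genes. In the remaining lists it was present at 20 of 20 SREBP and lipid synthesis genes and 20 of 20 clock genes. It was present at 18 of 20 lipid handling genes, 13 of 14 AP-1 genes, and 13 of 20 inflammation genes. Because the list holds no level and pools all libraries, regions open in a few cells of another type cannot be told apart from regions that are open in the LMs themselves. The part of such cells in the clusters was not tested.

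Among lineage factors, the retinoid X receptor gene *Rxra* (ENSMUSG00000015846.8, chromosome 2, 27531960 to 27618477, plus strand) had 10 members in 2 clusters of 5. The first spanned 2573 bp of introns, 37901.5 to 40310 bp from the start of the gene. The second, over 6775 bp, began inside the gene and ended past it, and 1 member held the PU.1 and 1 the CTCF letters. With regions at most 500 bp apart joined, 5 members of the 10 were left. *Cebpa* (ENSMUSG00000034957.9, chromosome 7, 35904312 to 35906945, plus strand), the gene of the C/EBPα factor of myeloid cells and hepatocytes, had 6 members, all between genes and 3543 to 11267.5 bp downstream of its start. The widths of 3 of them were 172, 262, and 174 bp, and the other 3 had the commonest width. Within 50 kb, but not 10 kb, *Cebpb* had 5 members.

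Of the Kupffer cell list, *Id3* (ENSMUSG00000007872.3, chromosome 4, 135699412 to 135701670, plus strand), a regulator that Kupffer cells depend on, had a cluster of 7 upstream, from 26218.5 to 8973 bp before its start, of which 1 member was within 10 kb. The AP-1 letters stood in 3 of the 7 and the C/EBP letters in 2. Of the genes that define Kupffer cells, *Clec4f*, *Timd4*, *Cd5l*, and *Marco* had 0 members within 50 kb, and *Slc40a1*, the iron exporter, had 5. In the AP-1 list, *Fosb* had a cluster of 5, with 2 AP-1 members, from 17342 to 6512 bp before its start. Within 50 kb there were 5 members at *Fos*, 3 at *Jund*, and 7 at *Maff*.

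Among clock genes, *Per2* (ENSMUSG00000055866.7, chromosome 1, 93312561 to 93355907, minus strand), which encodes a repressor of the clock, held 6 members in its introns, 13035 to 23712 bp from its start. The member farthest from the start had the commonest width, and the others were 183, 235, 229, 221, and 225 bp wide. *Nr1d1*, which encodes REV-ERBα (ENSMUSG00000020889.10, chromosome 11, 98629246 to 98636647, minus strand), had a cluster of 5 upstream, 13739.5 to 8217.5 bp before its start, with 1 member within 10 kb. The coding gene nearest to this cluster is *Msl1*, on its other side and 6351 bp away, so the members cannot be assigned to *Nr1d1*. Widths were 272, 231, 182, and 186 bp and, for 1 member, the commonest width, and 2 of the 5 held the E-box letters CACGTG, the sequence that CLOCK and BMAL1 bind. Neither cluster held the letters of the REV-ERB and ROR element. With regions at most 500 bp apart joined, 5 members were left at *Per2*, and the cluster at *Nr1d1* had under 5 and was lost.

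In lipid handling, *Abca1* (ENSMUSG00000015243.4, chromosome 4, 53043659 to 53172767, minus strand) held 7 members over 15149 bp, 32937 to 47880 bp into the gene and all in introns. Of them, 1 had the commonest width and the others were 163, 225, 184, 292, 159, and 249 bp wide, of which the last is the region with 2 PU.1 matches printed above. *Ctsb*, which encodes the lysosomal protease cathepsin B, held 5 in its introns, 1503 to 9987 bp from its start, of which 2 had the AP-1 letters. Of the inflammation list, the chemokine receptor gene *Cx3cr1* (ENSMUSG00000052336.5, chromosome 9, 119957811 to 119977400, minus strand) held 6 in its exons and introns, 9473 to 19557.5 bp from its start, and its own start had no open region. *Nfkbia*, which encodes the inhibitor of NF-κB, had a cluster of 5 that began 11879 bp downstream of its start, of which 1 member was within 10 kb of the gene. With regions at most 500 bp apart joined, the clusters at *Ctsb* and *Nfkbia* had under 5 and were lost, as were those at *Ctsb* and *Gpr182* when distal meant beyond 2.5 kb of a TSS, while 5 members were left at *Abca1* and 6 at *Cx3cr1*. In the endothelial list, *Gpr182* had 8 members, 4 of them in exons, in a cluster that also touched *Zbtb39*, so they cannot be assigned to 1 of the 2 genes.

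**Figure D4:**
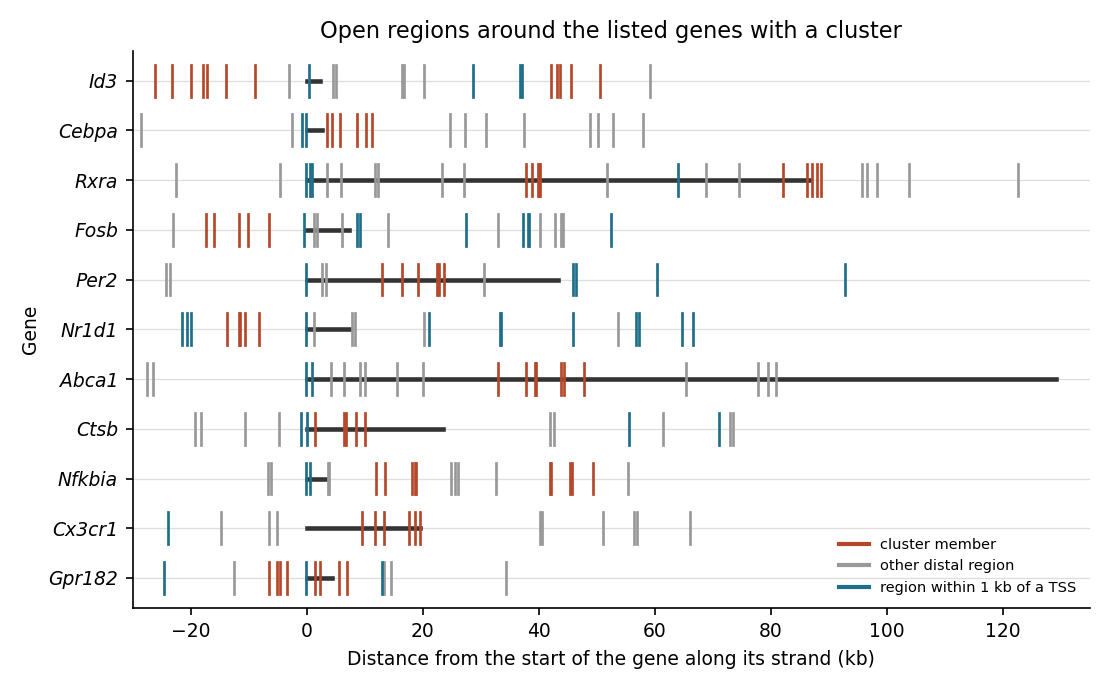
Open regions around the 11 listed genes with a cluster (rows), by distance in kb from the start of the gene along its strand. Thick lines are the genes, and ticks are members of any cluster, other distal regions, and regions within 1 kb of a TSS. The clusters counted for these genes lie inside *Per2*, *Abca1*, *Ctsb*, and *Cx3cr1*, inside *Rxra* and across its end, upstream of *Id3*, *Fosb*, and *Nr1d1*, downstream of *Cebpa* and *Nfkbia*, and on both sides of the start of *Gpr182*, and further clusters are drawn where they fall in the window.

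The central window of each region was then searched on both strands for the letters of 16 motifs. They were TGACTCA or TGAGTCA for AP-1, GAGGAAGT for PU.1, ACAGGAAG for other ETS factors, TTGCNNAA for C/EBP, GAAA, any 2 bases, and GAAA again for IRF, CTA, any 4 bases, and TAG for MEF2, CC, any 3 bases, and AGGGGGC for CTCF, and CACGTG for the E-box. The others were AANT followed by AGGTCA for the REV-ERB and ROR element (RORE), AGGTCA for the nuclear receptor half-site that the RORE contains, CAAAGTCCA for HNF4A, GTTAAT, any base, and ATTAA for HNF1, TGTTTAC for FOXA, AGATAA for GATA, TCACNCCAC for the sterol response element (SRE), and GGAATG for TEAD. The PU.1 and ETS letters share the core AGGAAG but differ in the base before it, so that no stretch matches both. A match is a description of the letters and not a bound site.

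AP-1 was the only motif for which the interval of the difference between members and the other distal regions lay above 0, and this did not hold in most other settings. Its letters were in 209 of 2612 members (8.00%, 7.02% to 9.10%) and 3143 of 45478 others (6.91%, 6.68% to 7.15%), a difference of 1.09 percentage points (0.0242 to 2.16). Among 10 other settings the interval included 0 in 7, such as 0.463 points (-0.117 to 1.04) with a chain distance of 10 kb, 0.365 (-0.371 to 1.102) with at least 4 members, and 0.543 (-0.442 to 1.53) with TSSs of coding genes alone. Over all 68533 regions the share was 5.71%, and in closed windows 1000 bp from members it was 2.76%. For 2 motifs the interval of the difference lay below 0. GATA letters were in 5.55% of members (4.74% to 6.50%) and 6.92% of the others, a difference of -1.37 points (-2.27 to -0.458), and in 5.68% of all regions. FOXA letters were in 2.99% of members and 3.67% of the others, a difference of -0.684 points (-1.36 to -0.00846), and in 3.05% of all regions. The intervals of AP-1 and FOXA end close to 0, and no adjustment was made for the 16 motifs searched. GC moves with membership (above), and the GATA and FOXA letters are rich in A and T. The part of base composition in these differences was not tested. In closed windows the GATA letters were in 6.48% beside members and 8.03% beside the others. The FOXA letters were in 1.42% and 2.07% of these windows, and the AP-1 letters in 2.76% and 2.63%.

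The interval of the other 13 differences included 0. PU.1 letters were in 92 members (3.52%, 2.88% to 4.30%) and 3.95% of the others, a difference of -0.429 points (-1.16 to 0.300), and in 3.35% of all regions. Within the clusters it was 4.19% in clusters of 5 (3.24% to 5.41%), 3.33% in clusters of 6 to 7 (2.33% to 4.74%), and 1.72% in those of 8 or more (0.838% to 3.52%), where the interval of the last lies below the share in the other distal regions. The interval of the PU.1 difference lay below 0 with a chain distance of 2.5 kb and with at least 4 or at least 8 members. It included 0 with a chain distance of 10 kb, a distal limit of 2.5 kb, and TSSs of coding genes alone. C/EBP letters were in 9.76% of members and 10.3% of the others (8.82% of all regions), CTCF letters in 1.19% and 1.40% (1.44% of all), ETS letters in 3.98% and 4.74% (4.03% of all), and IRF letters in 1.72% and 2.14% (1.91% of all). E-box letters were in 5.36% and 4.53% (5.01% of all), half-sites in 19.1% and 18.7% (15.9% of all), TEAD letters in 7.35% and 7.54% (6.94% of all), and MEF2 letters in 2.26% and 2.19% (2.00% of all). RORE letters were in 5 members (0.191%, 0.0818% to 0.447%) and 0.299% of the others (0.236% of all), and SRE letters in 19 members (0.727%) and 0.776% of the others (0.724% of all). Of the hepatocyte factors, HNF4A letters were in 0.804% and 1.02% (0.824% of all) and HNF1 letters in 1 member (0.0383%) and 0.0968% of the others (0.0788% of all).

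**Figure D5:**
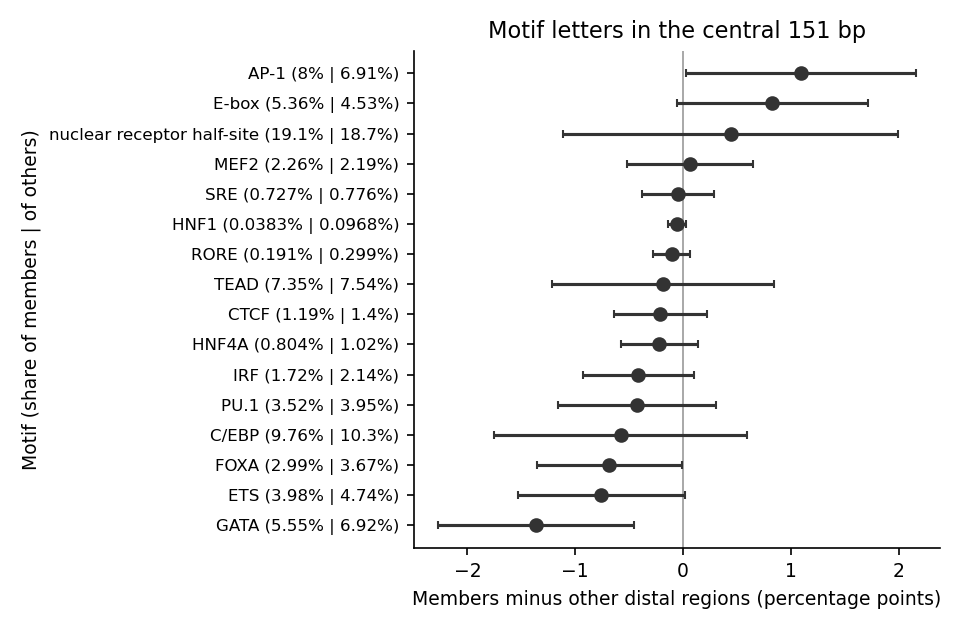
Difference between members and other distal regions in the share of central windows that hold each motif's letters (x axis, percentage points), with 95% counting intervals. Labels give both shares. The interval of AP-1 lies above 0, which most other settings did not keep, and those of GATA and FOXA below it.

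The counts by cluster that follow are for the central window. At least 1 member held the AP-1 letters in 161 clusters (35.7%, 31.4% to 40.2%), and 37 clusters had 2 or more such members. At most 3 members of a cluster held them, which 11 clusters reached. PU.1 letters were in 85 clusters (18.8%, 15.5% to 22.7%), of which 7 had 2 such members and none had more. The *Abca1* cluster is not among the 85, since the PU.1 matches printed above lie outside the central window. Both motifs were found in 39 clusters and either of them in 207 (45.9%, 41.4% to 50.5%). C/EBP letters were in 199 clusters (44.1%, 39.6% to 48.7%), with 2 or more such members in 46, and CTCF letters in 28 (6.21%, 4.33% to 8.83%). Read over the whole region, and leaving out chromosome 18, whose sequence is not reported here, 229 members held the AP-1 letters at 1 place and 13 at 2 places, while 2289 held none. The PU.1 letters stood at 1 place in 101 of them and at 2 places in 4, and 2426 held none.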

How the data were processed

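For 18 libraries the authors used the ATAC-Seq pipeline of the Kundaje laboratory, trimmed adapters, aligned reads to mm9 with Bowtie, merged the BAM files of replicates, and called peaks. The peak caller, its threshold, and how peaks of the groups were combined are not given in the sources used here. The deposited list holds coordinates and no count, score, or signal, so depth, replicate spread, and tests were out of reach. Starts are given from 1.

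Positions were compared with GENCODE M1 and sequence was read from NCBIM37, the assembly of mm9. Introns and exons are those of coding and lncRNA genes. Shares have 95% Wilson intervals for counting error only. Clusters named are the 12 with most members, the 3 densest and 3 longest, the 10 coding genes with most members, and every listed gene with a member. Of 262 listed genes in 14 lists, 261 matched the annotation. The members and the lists were chosen with earlier results of these data known. The chain, motif, repeat, and distance steps were tested on simulated data and recovered 1106 of 1106 planted members and 800 of 800 planted motifs. Alternatives were tried for the chain distance, number of members, distal limit, width, joining, gene flank, and repeats. Python 3.11.15, NumPy 2.4.6, pandas 2.3.3, SciPy 1.17.1, and matplotlib 3.10.9 were used.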

Additional observations from a re-analysis of the deposited data

How the results depend on the processing

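No paired analysis was possible because regions carry no value per library, and no replicate could be left out. With a chain distance of 2.5 kb there were 104 clusters with 553 members, 42.3% of clusters touched a coding gene, 2.53% of members were repeated, 2 listed genes had a cluster, the PU.1 difference was -2.51 points (-3.52 to -1.50), and the C/EBP difference turned to 0.178 points. With 10 kb there were 1424 clusters with 9562 members, of which 49.3% were in introns and 0.722% repeated, 67.7% of clusters touched a coding gene, and 53 listed genes had a cluster. The C/EBP difference with 10 kb was -0.757 points (-1.42 to -0.0900). At least 4 members gave 1138 clusters, 5360 members, 28 listed genes, and a PU.1 difference of -0.536 points (-1.06 to -0.0136). At least 8 gave 46 clusters, 406 members, 40.1% in introns, 1.97% repeated, 1 listed gene, and differences of -2.22 points for PU.1 (-3.50 to -0.944) and -3.94 for C/EBP (-6.34 to -1.54). Regions at least 200 bp wide gave 8 clusters, 42 members, 52.4% in introns, 62.5% of clusters touching a gene, 0% repeated, 0 listed genes, and differences of 2.35 points for AP-1, -2.13 for CTCF, and 6.72 for C/EBP, which turned, over fewer members. With regions within 500 bp joined there were 196 clusters, 1113 members, and 47.7% in introns. Listed genes with a member were 6 in the gene alone and 22 within 50 kb, and 40.6% of members were in introns of coding genes alone. Over all coding genes, 1.12% had a member in the gene and 5.03% in it or within 50 kb. That share was not run for the other chain distances and member numbers. The differences for AP-1, PU.1, and CTCF kept their sign in every alternative run for them, but the interval of AP-1 lay above 0 in 3 alone (regions joined, whole regions searched, repeated regions left out). It was 0.449 points (-1.75 to 2.64) at 2.5 kb, 1.17 (-1.50 to 3.84) with at least 8 members, and 1.12 (-0.0607 to 2.30) with a distal limit of 2.5 kb. A distal limit of 2.5 kb, TSSs of coding genes alone, whole regions searched for motifs, and leaving out repeated regions (chosen after seeing the data) left every summary value within 1.5 times of its count or within the counting interval of its share or difference. Differences near 0 still moved by over 1.5 times, as AP-1 to 0.543 points with coding TSSs, CTCF to -0.404 and PU.1 to -0.284 with the distal limit of 2.5 kb. The width share was not run for regions at least 200 bp wide or joined. Of 36 values for single clusters and genes, 33 were 0 with regions at least 200 bp wide, 21 with a distance of 2.5 kb, 20 with at least 8 members, 10 with joined regions, and 2 (*Ctsb* and *Gpr182*) with the distal limit of 2.5 kb. The causes were not tested beyond the smaller numbers that these settings leave.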

Other observations

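Outside chromosomes 1 to 19 the same rule gave 1 cluster of 14 members among 378 distal regions (825 regions in all) on chromosome X, with a median width of 172.5 bp and 57.1% of the members wider than the commonest width. Chromosome Y held 4 regions, none of them distal. On random and unplaced sequences, which have no annotated TSS here, 40 of 136 regions fell into 7 clusters of up to 8 and 47.5% of these 40 were wider than it. These clusters are in no other value of the report.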
